A study of Mus musculus with 56 samples.

Results

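*S100a8*, *S100a9*, *Lyz2*, *Mpo*, *Elane*, *Csf1r*, *Tyrobp*, *Fcer1g*, *Spi1* and *Cebpa* are genes of neutrophils and macrophages, and they were measured here in cultures of CD4+ T cells. They are 10 of the 47937 genes listed in each of 2 count tables. They were chosen as myeloid genes that are higher in cultures labelled as lacking *Odc* or *Dohh*. Their differences between deficient and WT libraries are therefore given as descriptions, and nothing is read from the tests of these differences. All 10 passed the filter on low counts in both tables, which a gene can do through the deficient libraries alone.

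CD4+ T cells from spleen and lymph nodes of C57BL/6 mice were activated through CD3 and CD28 and polarized for 4 days into TH1, TH2, TH17 or Treg cells before RNA sequencing. TH1 cultures received IL-12, TH2 cultures IL-4, TH17 cultures IL-6, TGF-β and IL-1β, and Treg cultures TGF-β, each with blocking antibodies. The mice carried loxP-flanked *Odc*, which encodes ornithine decarboxylase of polyamine synthesis, or loxP-flanked *Dohh*, which encodes the hydroxylase that completes hypusine on the translation factor eIF5A. Mice with Cre driven by the *CD4* promoter gave the libraries labelled *Odc*-/- or *Dohh*-/-, here called deficient, and Cre-negative mice gave the WT libraries, so every group carried the flanked alleles. This Cre acts in T cells, and the animals were mostly between 6 and 10 weeks old. In all, the *Odc* table held 16 WT and 15 deficient libraries, 4 in each group except 3 deficient TH2 libraries. The *Dohh* table held 12 WT and 12 deficient libraries, 3 in each group. The labels describe CD4+ T cells isolated by negative selection, whereas the methods of the study describe naive CD4+ cells. The comparison of deficient with WT libraries within a subset asks how loss of each enzyme changes the RNA of the whole culture.

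*S100a8* and *S100a9* encode the subunits of calprotectin, a calcium-binding alarmin that fills the cytosol of neutrophils. *Lyz2* encodes lysozyme M of granulocytes and macrophages, and *Mpo* and *Elane* encode myeloperoxidase and neutrophil elastase, enzymes of the primary granules that are transcribed in promyelocytes. *Csf1r* encodes the receptor for the macrophage growth factor CSF1. *Tyrobp* and *Fcer1g* encode the adaptors DAP12 and the Fc receptor γ chain, which signal through ITAM motifs for many receptors of myeloid cells and also of NK cells, mast cells and some γδ T cells. *Spi1* (PU.1) and *Cebpa* (C/EBPα) encode the transcription factors that direct myeloid development, and neither is typical of mature CD4+ T cells.

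The *Odc* libraries held 5905374 to 9145214 counts each, and the *Dohh* libraries 6572148 to 12576933. Levels are given as CPM, the usual depth-scaled counts with TMM-scaled library sizes, and are listed in the order of the replicate numbers. A count of 0 allows up to 3 counts, which is 0.239 to 0.508 CPM with library sizes before TMM scaling, and such limits cover counting error only. Gene-level counts do not check the deletions, because they include exons outside the flanked ones. *Odc1* ranged from 356.6 to 859.9 CPM in WT libraries and from 423.7 to 679.8 CPM in libraries labelled *Odc*-/-. *Dohh* ranged from 31.5 to 45.9 CPM in WT libraries and from 45.2 to 148 CPM in libraries labelled *Dohh*-/-. The direction of each difference between deficient and WT libraries therefore rests on the labels. In immunoblots of activated CD4+ T cells, the paper reports loss of ODC in its *Odc*-deficient mice and less hypusinated eIF5A without *Dohh*. Those blots do not check the labels of single libraries. Among markers of the labelled cell type, *Cd3e* stayed at 98.1 CPM or above in every library. *Cd4* ranged from 441 to 1032 CPM in WT and from 273 to 694 CPM in deficient libraries of the *Odc* table. Its *Dohh* table range was 661 to 968 CPM in WT and from 22.1 to 79.7 CPM in deficient libraries, without overlap. In bulk RNA, a change in the number of cells of a type and a change in RNA per cell cannot be told apart.

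The calprotectin genes were nearly absent from WT TH1 and TH2 cultures, low in WT TH17 and Treg cultures, and highest in deficient TH17 and Treg cultures of both tables. *S100a8* (ENSMUSG00000056054.9) lies at chr3:90668978-90670035 on the plus strand of GRCm38, and *S100a9* (ENSMUSG00000056071.12) lies beside it at chr3:90692632-90695721 on the minus strand. *S100a8* had 4.39, 7.23, 125 and 14.7 CPM in *Odc*-/- TH17 cells, against 2.44, 0.117, 2.37 and 0.581 CPM in WT, a log2 fold change of 4.74 ± 1.12 (SE). It had 8.99, 21.8, 166 and 23.6 CPM in *Odc*-/- Treg cells, against 0.635, 0.207, 1.61 and 0.816 CPM in WT, a log2 fold change of 6.07 ± 1.20. In both subsets every deficient library lay above every WT library, and replicate 3 lay far above the other deficient libraries. *S100a8* had 180.4, 1866 and 4314 CPM in *Dohh*-/- TH17 cells, against 2.18, 1.95 and 1.27 CPM in WT, a log2 fold change of 10.17 ± 2.38. It had 112, 515 and 1273 CPM in *Dohh*-/- Treg cells, against 3.01, 3.77 and 1.87 CPM in WT, a log2 fold change of 7.79 ± 2.16. Here replicate 1 was the lowest and replicate 3 the highest deficient library, and both groups stood clear of WT.

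*S100a9* ranked the deficient TH17 and Treg libraries of each table in the same order as *S100a8*. It had 5.98, 7.49, 188 and 17.8 CPM in *Odc*-/- TH17 cells, against 2.67, 0.234, 4.97 and 1.16 CPM in WT, and in *Odc*-/- Treg cells 14.3, 32.5, 261 and 34.9 CPM, against 1.27, 0.310, 3.11 and 0.350 CPM. The log2 fold changes were 4.56 ± 1.17 and 6.09 ± 1.26. It had 299.9, 2427 and 5749 CPM in *Dohh*-/- TH17 cells, against 3.71, 2.93 and 3.93 CPM in WT, and in *Dohh*-/- Treg cells 156, 796 and 1669 CPM, against 2.78, 4.50 and 4.69 CPM. These are log2 fold changes of 9.64 ± 2.36 and 7.78 ± 2.20. Calprotectin is made of both subunits, and the ratio of *S100a9* to *S100a8* per kilobase of exon stayed between 1.24 and 2.44 in the 19 deficient libraries with at least 30 counts of the pair.

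In TH1 and TH2 cultures the pair was sparser, and in *Dohh*-/- cells replicate 2 lay far above the other libraries. *S100a8* and *S100a9* had no count in any of the 7 WT TH1 libraries. *S100a8* had 0, 46.1 and 0 CPM in *Dohh*-/- TH1 cells and *S100a9* had 0, 82.5 and 0 CPM, so that only replicate 2 held any. Against 3 counts over the WT group, these are at least 119.9-fold and 215-fold higher over the deficient group. *S100a8* had 1.26, 286 and 14.5 CPM in *Dohh*-/- TH2 cells, against 0.0823, 0.529 and 0.224 CPM in WT, and *S100a9* had 2.31, 320.3 and 13.6 CPM, against 0.165, 0.423 and 0 CPM. Replicate 2 was again the highest library of both genes, and all 3 deficient libraries lay above WT. *S100a8* had 0.398, 6.75 and 1.29 CPM in *Odc*-/- TH2 cells in replicates 2, 3 and 4, against 0.245, 0, 0.401 and 0 CPM in WT, and the groups overlapped. In *Odc*-/- TH1 cells, neither gene passed 0.422 CPM.

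*Lyz2* had a clear level in WT TH17 and Treg cultures, and it had its highest levels in deficient TH17 and Treg cultures. It lies at chr10:117277331-117282321 on the minus strand (ENSMUSG00000069516.7). Its near-identical neighbor *Lyz1* reached at most 0.804 CPM in any library, and how reads shared by both genes were assigned is not stated. *Lyz2* had 25.4, 87.3, 229 and 70.0 CPM in *Odc*-/- TH17 cells, against 24.7, 10.4, 27.1 and 17.0 CPM in WT (log2 fold change 2.37 ± 0.49), and replicate 1 lay within the WT range. It had 60.7, 99.6, 289 and 77.2 CPM in *Odc*-/- Treg cells, against 20.4, 11.99, 25.002 and 13.3 CPM in WT (2.90 ± 0.49), without overlap. Both subsets of the *Dohh* table were separated from WT. It had 67.0, 4211 and 1205 CPM in *Dohh*-/- TH17 cells, against 16.4, 15.3 and 18.4 CPM in WT (log2 fold change 6.78 ± 1.78). It had 56.2, 2855 and 1641 CPM in *Dohh*-/- Treg cells, against 11.8, 7.78 and 11.2 CPM in WT (7.20 ± 1.82). Replicate 2, and not replicate 3, was the highest *Dohh*-/- library in both subsets. In TH1 and TH2 cultures *Lyz2* was low in WT, at most 0.581 CPM. It had 1.36, 1.06, 3.38 and 1.96 CPM in *Odc*-/- TH1 and 1.06, 1.02 and 0.388 CPM in *Odc*-/- TH2 cells. It had 1.02, 76.5 and 1.54 CPM in *Dohh*-/- TH1 and 1.89, 54.6 and 8.38 CPM in *Dohh*-/- TH2 cells. Each of these 4 deficient groups lay above its WT group in every library.

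The primary granule genes were at or near 0 in WT cultures of every subset and were counted in most deficient cultures. *Mpo* (ENSMUSG00000009350.13, chr11:87793581-87804413, plus strand) had at most 2 counts over any WT group. It had 1.20, 3.55, 15.8 and 2.99 CPM in *Odc*-/- TH17 cells, which is at least 61.6-fold higher than 3 counts over the WT group, and 0.661, 3.74, 15.0 and 4.04 CPM in *Odc*-/- Treg cells, where the ratio of summed counts was 213 (95% counting interval 37.7 to 8457). In the *Dohh* table, *Mpo* had 3.45, 33.1 and 142 CPM in deficient TH17 and 3.09, 12.7 and 37.1 CPM in deficient Treg cells. The ratio of summed counts in TH17 cells was 1499 (95% counting interval 269 to 59243), and the value in Treg cells was at least 199-fold higher. Unlike the calprotectin genes, *Mpo* also separated the *Odc*-/- TH2 libraries from WT, at 2.12, 1.27 and 0.904 CPM, against 1 count in 1 of 4 WT libraries. In *Dohh*-/- cells it had 0.210, 15.1 and 5.51 CPM in TH2 and 0, 6.79 and 0 CPM in TH1 cultures. It had 0, 0.132, 1.13 and 0.280 CPM in *Odc*-/- TH1 cells. Of its exonic bases, 15.0% also belong to *Gm11505* on the opposite strand, and whether the counting used strand is not stated.

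*Elane* (ENSMUSG00000020125.6, chr10:79886247-79888215, plus strand) had 0.532, 1.05, 7.65 and 0.911 CPM in *Odc*-/- TH17 cells, against 0, 0, 0.113 and 0.116 CPM in WT, a ratio of summed counts of 39.0 (95% counting interval 10.4 to 329). It had 1.19, 2.17, 11.6 and 1.82 CPM in *Odc*-/- Treg cells, against 0, 0.103, 0 and 0.466 CPM in WT, a log2 fold change of 4.78 ± 1.09. All deficient libraries of both subsets lay above WT, and replicate 3 was again the highest. In *Dohh*-/- cells it had 4.16, 40.2 and 126 CPM in TH17 and 6.52, 16.8 and 45.5 CPM in Treg cultures, against a single count over each WT group. The ratios of summed counts were 1488 (95% counting interval 267 to 58816) and 773 (95% counting interval 138 to 30567). It had 0.315, 7.44 and 1.17 CPM in *Dohh*-/- TH2 cells, at least 30.8-fold higher than the WT group, and in *Dohh*-/- TH1 cells 0.102, 2.52 and 0 CPM. *Elane* had no count in any *Odc*-/- or WT TH1 library of the *Odc* table, so it had no fold there.

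The promoters of the calprotectin and primary granule genes are shown because these 4 genes moved together across the deficient libraries and are known targets of PU.1 and C/EBP factors. The 250 bases before the RefSeq start in GRCm38.p6 were searched. In 3 of the 4 genes the gene model used for the counts begins before that start, by 93 bases in *S100a8*, 203 in *Mpo* and 65 in *Elane*, and the bases inside the gene model are not shown. The sequences run 5′ to 3′ on the strand of the gene, at chr3:90668821-90668977 (plus strand), chr3:90695722-90695971 (minus), chr11:87793534-87793580 (plus) and chr10:79886062-79886246 (plus). Capitals mark matches, on either strand, to a PU.1 core (GAGGAAG), a C/EBP motif (TTGCNNAA) or a RUNX motif (TGTGGT).
S100a8: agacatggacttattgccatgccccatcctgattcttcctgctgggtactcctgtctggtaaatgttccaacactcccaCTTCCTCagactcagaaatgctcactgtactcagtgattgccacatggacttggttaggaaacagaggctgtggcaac
S100a9: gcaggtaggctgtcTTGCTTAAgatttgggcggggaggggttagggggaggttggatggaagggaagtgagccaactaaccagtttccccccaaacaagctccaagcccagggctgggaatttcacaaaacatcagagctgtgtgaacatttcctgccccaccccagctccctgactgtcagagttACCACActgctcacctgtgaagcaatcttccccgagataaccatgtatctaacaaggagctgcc
Mpo: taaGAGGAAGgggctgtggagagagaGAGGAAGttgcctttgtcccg
Elane: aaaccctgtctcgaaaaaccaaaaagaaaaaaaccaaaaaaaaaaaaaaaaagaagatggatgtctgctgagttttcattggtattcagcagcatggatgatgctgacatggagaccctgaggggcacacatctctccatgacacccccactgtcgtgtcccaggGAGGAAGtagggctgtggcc
*S100a8* held the PU.1 core on the reverse strand, from 171 to 165 bases before the RefSeq start, from which all positions here are counted. *Elane* held it from 85 to 79 bases before the start, and *Mpo* held it at 247 to 241 and at 224 to 218 bases. *S100a9* held TTGCTTAA, a match to the C/EBP motif, from 236 to 229 bases before the start and a RUNX match on the reverse strand from 64 to 59 bases. The promoter table matched 7 of the 10 members, namely these 4, *Lyz2*, *Fcer1g* and *Cebpa*. Among the 7, the PU.1 core was in 3, the C/EBP motif in 1 and the RUNX motif in 2, the second being *Lyz2* from 66 to 61 bases. Over all 32851 promoters searched in windows of this length, the shares with a match were 10.6%, 9.56% and 14.05%. All matches in these genes lie outside the gene models. The motifs do not overlap each other in these windows, and the GGAA within the PU.1 core is shared by other ETS factors. A match describes the letters and not a bound site.

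*Csf1r* (ENSMUSG00000024621.15) was low in WT cultures and differed less than the granule genes in the *Odc* table. It had 2.79, 3.81, 13.3 and 4.94 CPM in *Odc*-/- TH17 cells, against 3.48, 1.52, 2.71 and 1.39 CPM in WT, a log2 fold change of 1.42 ± 0.53 with overlapping libraries. Without replicate 3 of the deficient libraries this value was 0.75. It had 3.70, 7.59, 18.6 and 5.34 CPM in *Odc*-/- Treg cells, against 1.16, 0.620, 1.498 and 0.350 CPM in WT (3.26 ± 0.58), and the groups did not overlap. It had 6.09, 150.2 and 134 CPM in *Dohh*-/- TH17 cells, against 2.02, 1.95 and 0.693 CPM in WT (5.91 ± 1.39). It had 5.97, 94.9 and 101 CPM in *Dohh*-/- Treg cells, against 1.58, 0.243 and 1.19 CPM in WT (5.95 ± 1.42). Here replicates 2 and 3 were close to each other, and replicate 1 was far lower. It had 0.944, 24.7 and 7.21 CPM in *Dohh*-/- TH2 cells, against 0, 0.106 and 0.224 CPM in WT, and in *Dohh*-/- TH1 cells 0, 6.47 and 0.552 CPM, against 0.331, 0.0996 and 0.336 CPM. In *Odc*-/- TH1 and TH2 cells no library passed 0.755 CPM. Of its exonic bases, 15.1% also belong to *Hmgxb3* on the opposite strand.

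The ITAM adaptors *Tyrobp* and *Fcer1g* were the members whose difference reached every subset. Each was counted in every WT library, and in each of the 8 comparisons every deficient library lay above every WT library. *Tyrobp* (ENSMUSG00000030579.10, chr7:30413760-30417585, plus strand) had 18.0, 10.98, 15.9 and 13.9 CPM in *Odc*-/- TH1 cells, against 3.03, 1.99, 2.76 and 1.78 CPM in WT, a log2 fold change of 2.61 ± 0.44. The values were 2.40 ± 0.49 in TH2, 2.65 ± 0.43 in TH17 and 4.197 ± 0.46 in Treg cells, where deficient libraries had 26.3, 14.7, 44.0 and 11.5 CPM. In the *Dohh* table, *Tyrobp* had 5.11, 21.3 and 51.8 CPM in deficient TH1, 5.98, 61.4 and 28.4 CPM in deficient TH2, 21.1, 180.4 and 138 CPM in deficient TH17 and 19.3, 119 and 120.2 CPM in deficient Treg cells. The WT libraries of that table lay between 0.897 and 2.63 CPM, and the log2 fold changes ran from 4.10 ± 1.03 to 5.61 ± 1.03. Replicate 3 of the *Dohh*-/- TH1 cells was the highest of its group for *Tyrobp* and it had no count of *S100a8*, *S100a9* or *Mpo*.

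*Fcer1g* (ENSMUSG00000058715.11, chr1:171229572-171234365, minus strand) was as widespread. In the *Odc* table it had 16.3, 14.02, 25.6 and 19.6 CPM in deficient TH1 cells, against 4.19, 2.13, 5.66 and 7.70 CPM in WT (1.94 ± 0.41), and 74.0, 57.4, 126 and 45.6 CPM in deficient Treg cells, against 2.86, 1.03, 2.88 and 3.96 CPM (4.83 ± 0.43). The log2 fold changes in TH2 and TH17 cells were 2.02 ± 0.44 and 2.69 ± 0.40. The Treg value was thus the highest of the *Odc* table for this gene, and the 4 Treg libraries differed from each other less than for the granule genes. In the *Dohh* table it had 26.0, 59.3 and 63.9 CPM in deficient TH1, 27.1, 64.7 and 61.4 CPM in TH2, 30.6, 155 and 254 CPM in TH17 and 73.2, 129.8 and 186 CPM in Treg cells. Its WT libraries lay between 1.23 and 4.67 CPM, and the log2 fold changes between 4.58 ± 0.65 and 5.33 ± 0.63. Per kilobase of exon, the ratio of *Fcer1g* to *Tyrobp* was 2.15, 2.98, 2.19 and 3.04 in *Odc*-/- Treg libraries. It was 0.693 to 1.36 in the other *Odc*-/- libraries, so the adaptors were not in a fixed proportion.

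The myeloid transcription factors were low in WT cultures and present in most deficient ones, with *Spi1* above *Cebpa* per kilobase of exon in every group that had both. *Spi1* (ENSMUSG00000002111.8, chr2:91082390-91115756, plus strand) had 8.61, 5.03, 5.63 and 2.94 CPM in *Odc*-/- TH1 cells, against 0.144, 0.142, 0.435 and 1.04 CPM in WT (3.62 ± 0.70), and 10.5, 9.17 and 6.59 CPM in *Odc*-/- TH2 cells, against 1.96, 0.534, 1.07 and 1.75 CPM (2.70 ± 0.59). In *Odc*-/- TH17 and Treg cells it had 1.99, 4.34, 17.3 and 6.12 CPM and 5.15, 3.86, 16.8 and 4.43 CPM, with log2 fold changes of 3.01 ± 0.59 and 3.55 ± 0.62. The 4 *Odc*-/- subset means of *Spi1* lay between 5.55 and 8.74 CPM, the smallest largest-to-smallest fold among the members. In the *Dohh* table it had 0.613, 6.15 and 0.110 CPM in deficient TH1, 4.09, 48.8 and 18.9 CPM in TH2, 11.6, 85.3 and 79.2 CPM in TH17 and 8.51, 54.6 and 49.6 CPM in Treg cells. The log2 fold changes were 4.89 ± 1.15, 4.95 ± 1.07 and 5.43 ± 1.14 in the last 3 subsets, while the TH1 libraries overlapped WT. Replicate 3 of the *Dohh*-/- TH1 cells had 0.110 CPM of *Spi1* beside 51.8 CPM of *Tyrobp*.

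*Cebpa* (ENSMUSG00000034957.10, chr7:35119293-35121928, plus strand) had no count in the 8 WT TH1 and TH2 libraries of the *Odc* table. In the deficient ones it had 0.151, 0.132, 0.844 and 0.420 CPM in TH1 and 0.265, 1.02 and 0.258 CPM in TH2 cells, at least 3.56-fold and 5.19-fold higher than 3 counts over the WT group. It had 0.532, 0.789, 3.16 and 0.781 CPM in *Odc*-/- TH17 and 0.529, 2.17, 3.11 and 1.30 CPM in *Odc*-/- Treg cells, with log2 fold changes of 2.55 ± 0.77 and 2.62 ± 0.69. Levels in the *Dohh* table were lowest in TH1 cells. They were 1.15, 9.88 and 5.19 CPM in TH2, 2.54, 26.3 and 26.9 CPM in TH17 and 1.55, 14.4 and 17.2 CPM in Treg cells, and 0.102, 2.37 and 0 CPM in TH1 cells. WT libraries of that table reached 0.462 CPM at most. As for *Csf1r* and *Spi1*, replicates 2 and 3 of the *Dohh*-/- TH17 and Treg cells were alike and replicate 1 was lower.

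**Figure D1:**
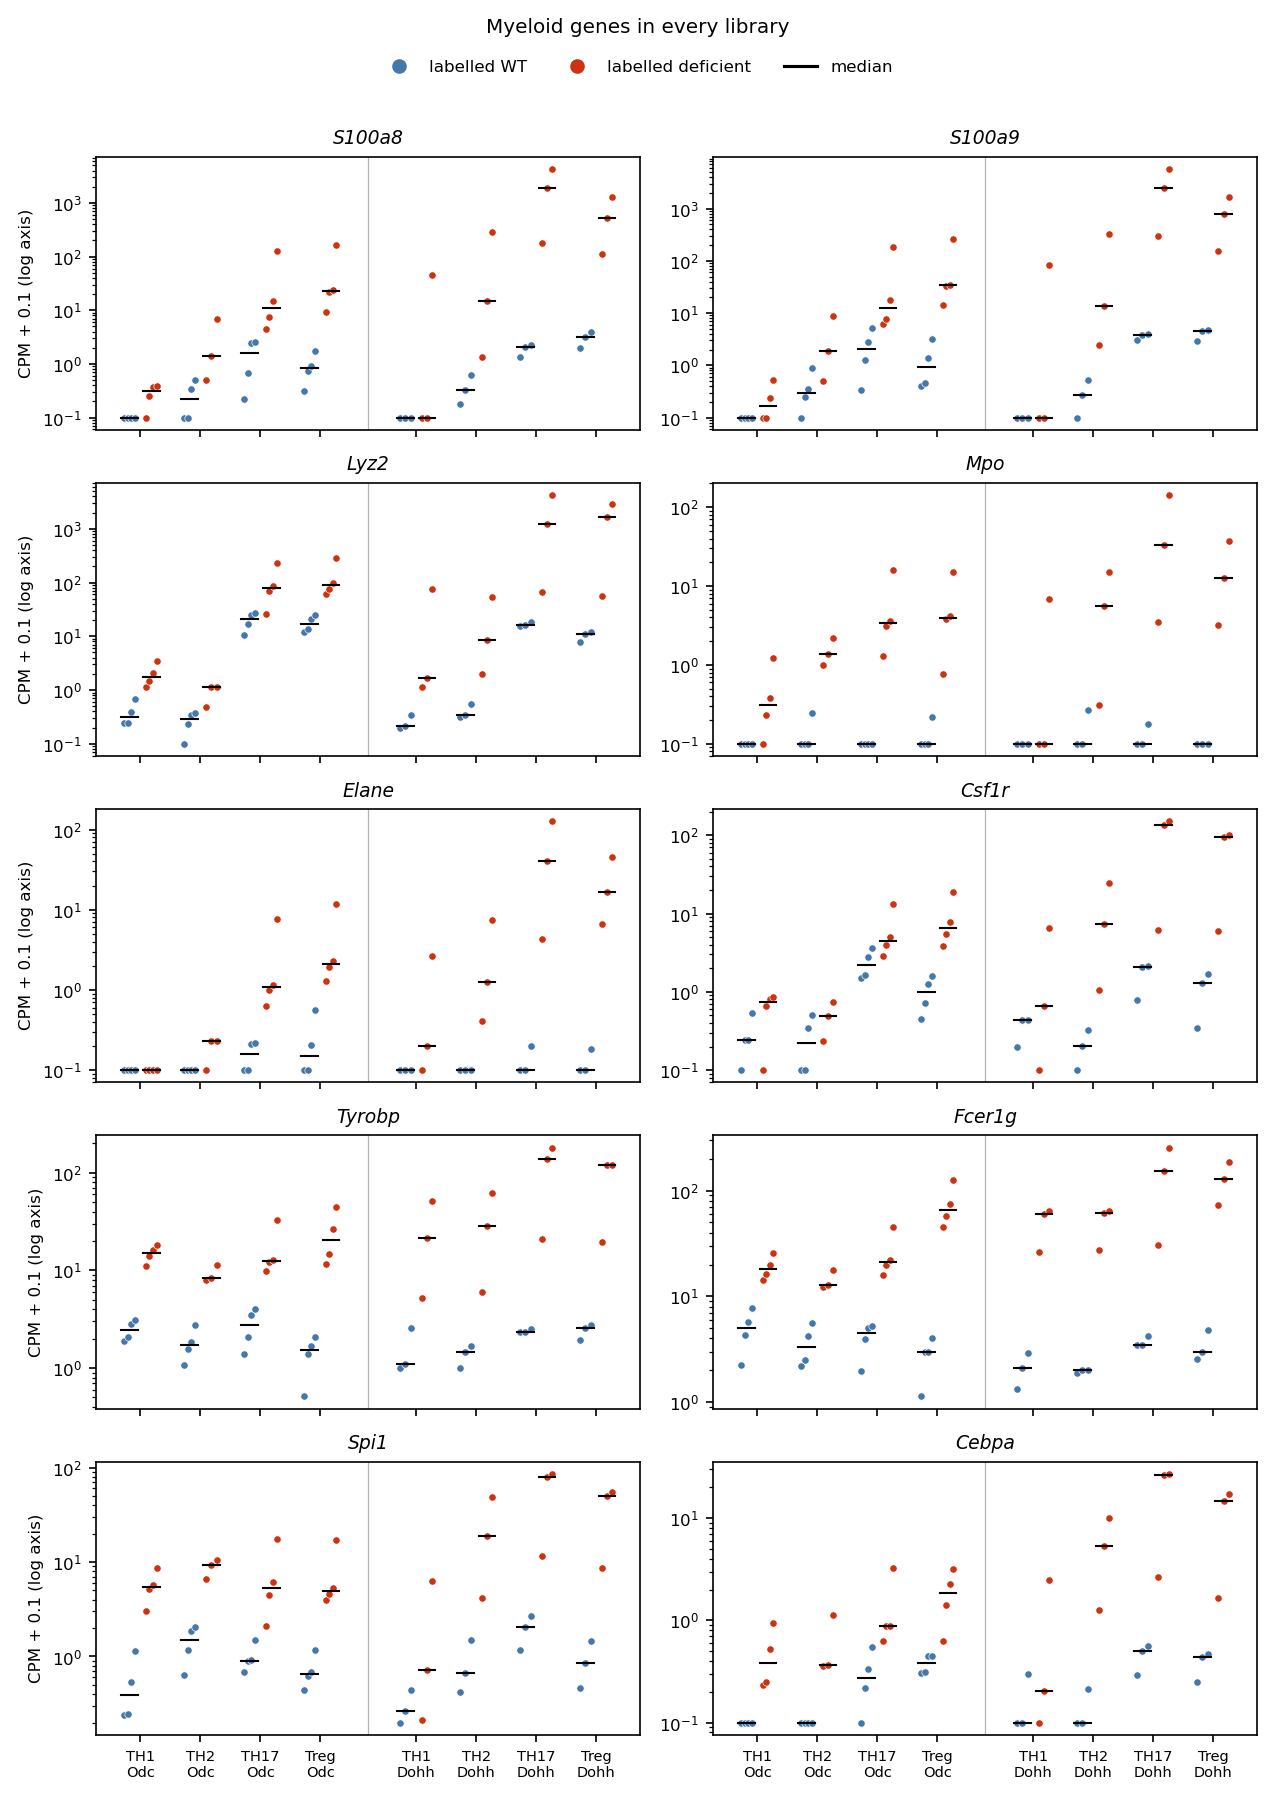
Level of each of the 10 genes in every library, as CPM + 0.1 on a log axis, by subset and count table, with WT libraries in blue, libraries labelled *Odc*-/- or *Dohh*-/- in red, points of a group sorted by level and a bar at the median of each group. For *Tyrobp* and *Fcer1g* the red points lie above the blue ones in all 8 comparisons, while *S100a8*, *S100a9*, *Mpo* and *Elane* lie at or near 0 in most WT groups.

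Together the 10 genes made up a small part of each library, and within each table the highest share was in a deficient TH17 or Treg library. Their summed counts were at most 0.00479% of any WT library. In the *Odc* table the highest shares were 0.0689% in deficient TH17 and 0.0954% in deficient Treg cells, both in replicate 3. In *Dohh*-/- TH17 cells the share ranged from 0.0659% to 1.23%, and in *Dohh*-/- Treg cells from 0.0432% to 0.507%. The highest share in *Dohh*-/- TH2 cells was 0.0896%.

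Calls used edgeR's quasi-likelihood test and needed more than a 2-fold difference together with an adjusted p under 0.05 (Benjamini-Hochberg over all genes). Because the genes were chosen by this contrast, the counts of members called describe the choice and nothing is read from them. Of the 10 members, 4 were called higher in *Odc*-/- TH1, 5 in TH2, 10 in TH17 and 10 in Treg cells. Of the 13839 genes tested there, 10.2% were called higher and 11.3% lower in TH1, 11.5% and 13.6% in TH2, 8.35% and 7.21% in TH17, and 13.9% and 10.1% in Treg cells. The *Dohh*-/- comparisons called 4 members higher in TH1 and 10 in each other subset. Of the 13897 genes tested there, 14.8% were called higher and 14.2% lower in TH1, 14.3% and 11.6% in TH2, 17.3% and 14.1% in TH17, and 17.5% and 15.2% in Treg cells. No member was called lower. The median log2 fold change of the members was 2.98, 2.69, 2.85 and 4.49 in *Odc*-/- TH1, TH2, TH17 and Treg cells and 5.23, 6.55, 6.34 and 6.58 in *Dohh*-/- ones. With members whose WT libraries were all at 0 set to their bound, and those with no fold left out, these medians ran from 1.83 to 4.49 and from 4.12 to 6.58. The median over all genes tested lay between -0.0019 and 0.07. Every deficient library lay above every WT library for 5, 6, 8 and 10 members in the 4 *Odc* comparisons and for 3, 10, 10 and 10 in the 4 *Dohh* comparisons. No share over all genes is given beside these counts. They too describe the choice, and nothing is read from them.

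Differences between subsets among WT libraries were not used to choose the genes and were tested with edgeR's quasi-likelihood F-test. *Lyz2* was higher in WT TH17 and Treg cells than in WT TH1 and TH2 cells. In the *Odc* table it had 19.8 ± 7.61 CPM (SD, n = 4) in TH17 and 17.7 ± 6.13 CPM (SD, n = 4) in Treg cells, and 0.290 ± 0.205 CPM (SD, n = 4) in TH1 and 0.161 ± 0.122 CPM (SD, n = 4) in TH2 cells. The largest difference between subset means was 6.76 on the log2 scale (adjusted p = 1.18e-07, edgeR). Over all WT libraries *Lyz2* averaged 9.88 CPM, above the 1.23 CPM at which the filter sets its cutoff, so an even spread over the subsets would have passed it too. These averages use library sizes without TMM scaling, as the filter does. The libraries of TH17 and Treg overlapped, as did those of TH1 and TH2. *Csf1r* followed the same order, with 2.28 ± 0.998 CPM (SD, n = 4) in TH17, 0.908 ± 0.519 CPM (SD, n = 4) in Treg and at most 0.181 CPM on average in TH1 and TH2 cells. The TH17 and Treg libraries of *Csf1r* overlapped. Its WT average of 0.904 CPM lay under the cutoff, as did that of *S100a9* at 0.986 CPM, so their calls are not read. *Cebpa* had no count in WT TH1 and TH2 libraries and up to 0.452 CPM in TH17 and Treg libraries, which held 7 and 10 counts in all. It was called too, but it entered the test only through the deficient libraries, so nothing is read from this. With *Cebpa*, 3 of 10 members were called, beside 33.2% of all genes tested, and 2 without replicate 1 of TH2, 3 of Treg or 4 of Treg. *S100a9* had 2.26 ± 2.07 CPM (SD, n = 4) in TH17 and 1.26 ± 1.31 CPM (SD, n = 4) in Treg cells. With a block on the replicate number, or on genotype and number, which was added after the data were seen, 5 members were called. They included *S100a8* and *S100a9*, from which nothing is read here for the same reason. *Tyrobp* and *Fcer1g* did not pass the F-test between WT subsets, with subset means of 1.31 to 2.65 CPM and 2.68 to 4.92 CPM.

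In WT libraries of the *Dohh* table, *Lyz2*, *S100a8* and *S100a9* had every TH17 and Treg library above every TH1 and TH2 library. *Lyz2* had 16.7 ± 1.55 CPM (SD, n = 3) in TH17, 10.3 ± 2.17 CPM (SD, n = 3) in Treg, 0.302 ± 0.128 CPM (SD, n = 3) in TH2 and 0.153 ± 0.0825 CPM (SD, n = 3) in TH1 cells, and here TH17 lay above Treg without overlap. *S100a9* had 3.71, 2.93 and 3.93 CPM in TH17 and 2.78, 4.50 and 4.69 CPM in Treg libraries, none in TH1 and at most 0.423 CPM in TH2 libraries. In the fit of all libraries of that table, 0 of 10 members were called and 1 had an unadjusted p below 0.05 (*Lyz2*, adjusted p = 0.0617, edgeR), beside 26.4% of all genes. With a block on genotype and number 3 were called, *Lyz2*, *Csf1r* and *Spi1*, and with a block on the number alone *Lyz2* was. That fit of all libraries shares its estimate of spread with the deficient libraries, whose values varied widely between replicates. Whether this lowered the number of calls was not tested. In a fit of the WT libraries alone, added after the data were seen, 7 members passed the filter and 5 were called, beside 32.1% of all genes tested. Of these, *Lyz2* (adjusted p = 7.44e-14, over all settings 7.44e-14 to 0.403), *S100a9* (2.52e-08, 2.52e-08 to 0.717) and *S100a8* (7.09e-07, 7.09e-07 to 0.766) by edgeR averaged 7.12, 1.98 and 1.27 CPM over the WT libraries, above the cutoff of 1.002 CPM. *Csf1r* and *Spi1* averaged less than the cutoff, so their calls are not read. The same fit of the *Odc* table tested 5 members and called 3, *Lyz2*, *Csf1r* and *S100a9*, beside 32.6% of all genes. Members that passed a filter within WT libraries are those with the higher WT levels, so nothing is read from how many were called.

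**Figure D2:**
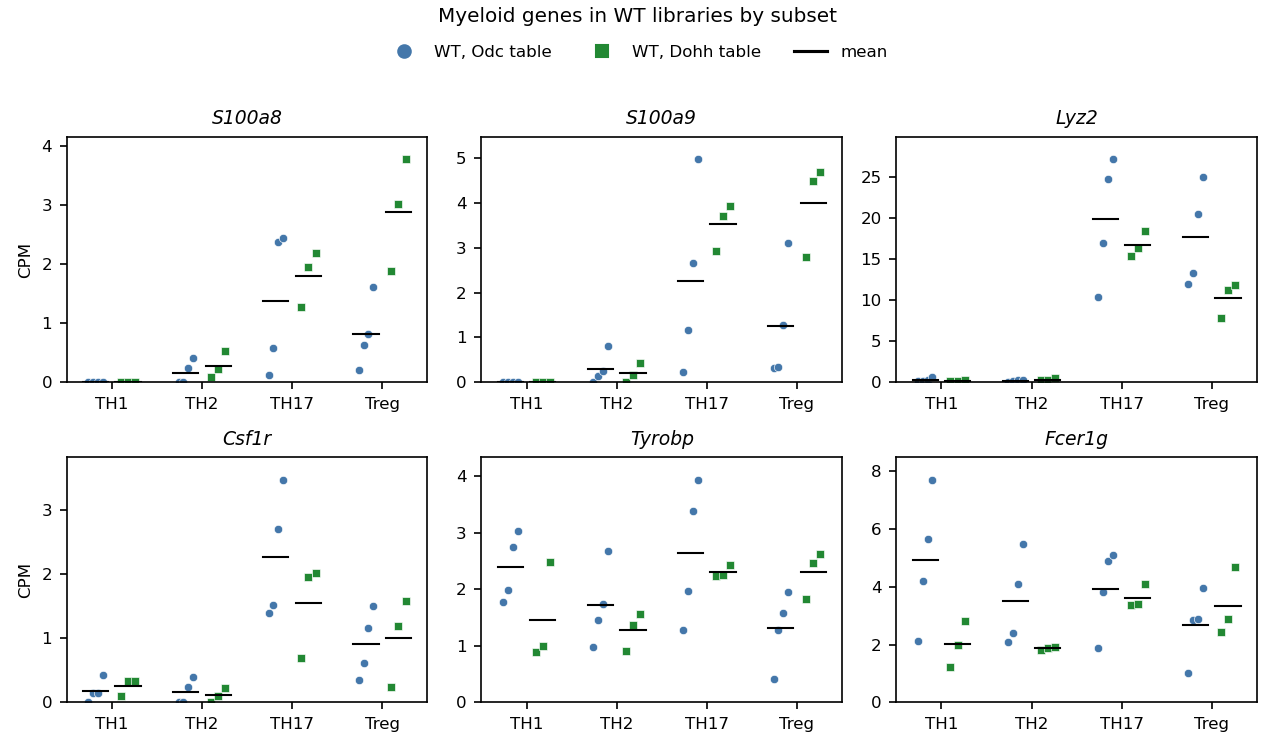
CPM of 6 of the genes in WT libraries of the 4 subsets, on a linear axis, with circles for the *Odc* table, squares for the *Dohh* table and a bar at each group mean. In both tables *Lyz2* lies higher in every TH17 and Treg library than in any TH1 or TH2 library, and the means of *Csf1r* are highest in TH17 cells. *Tyrobp* and *Fcer1g* overlap between all subsets among the circles. Among the squares, the TH1 libraries overlap TH17 and Treg libraries for *Tyrobp* and Treg libraries for *Fcer1g*.

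The deficient libraries were the ones whose high values chose these genes and carried many of them past the filter, so their differences between subsets are given as a description and nothing is read from the calls. Among libraries labelled *Odc*-/-, 9 of 10 members were called between subsets, beside 27.2% of all genes, and 7 to 9 with 1 library left out. *Lyz2* had subset means of 1.94, 0.822, 103 and 132 CPM in TH1, TH2, TH17 and Treg cells. *S100a8*, *S100a9*, *Elane*, *Csf1r* and *Mpo* also had their highest mean in Treg or TH17 cells, whose libraries overlapped for each of them. *Fcer1g* had 75.8 ± 35.6 CPM (SD, n = 4) in Treg cells, against 18.9 ± 5.04 CPM (SD, n = 4) in TH1 and 14.1 ± 2.99 CPM (SD, n = 3) in TH2 cells. *Spi1* was the member that was not called. A fit of the deficient libraries alone, also added later, called 7 of 10 members, beside 25.2% of all genes.

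Among libraries labelled *Dohh*-/-, 8 of 10 members were called, beside 25.3% of all genes. *Lyz2* had means of 26.4 CPM in TH1, 21.6 in TH2, 1828 in TH17 and 1517 in Treg cells. In each of the 10 genes the TH17 mean was the highest, and the TH17 and Treg libraries overlapped. *Mpo* and *Tyrobp* were the members that were not called. The count fell to 5 without replicate 3 of TH17 cells and rose to 10 without replicate 1 of TH17 cells. In a fit of the deficient libraries alone 1 member was called, *Elane*, beside 14.8% of all genes.

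Single deficient libraries carried much of the values. In the *Odc* table, replicate 3 was the highest deficient library for all 10 members in both TH17 and Treg cells. Without it, the log2 fold change in TH17 cells was 2.65 for *S100a8*, 2.19 for *S100a9* and 1.72 for *Cebpa*, and *Csf1r*, *S100a9* and *Cebpa* no longer passed the thresholds of a call. *Lyz2* and *Spi1* then had 1.62 and 2.19, the lower bound for *Mpo* was 29.8-fold in place of 61.6-fold, and the ratio for *Elane* was 14.4 (95% counting interval 3.48 to 128) in place of 39.0. In Treg cells without replicate 3, the log2 fold change was 4.47 for *S100a8*, 4.44 for *S100a9*, 3.51 for *Elane*, 2.80 for *Spi1*, 2.59 for *Csf1r* and 2.17 for *Lyz2*, and the ratio for *Mpo* was 104 (95% counting interval 18.0 to 4151) in place of 213. Leaving out a WT library raised some values, to 4.44 for *Spi1* in TH1 cells (WT replicate 4), and without WT replicate 3 to 3.27 for *Cebpa* and 5.30 for *S100a9* in TH17 cells and 7.01 for *S100a9* in Treg cells. *Elane* in Treg cells kept 1 WT count without WT replicate 4. The call of *Csf1r* in TH17 cells was also lost without WT replicate 2 (1.27) or 4 (1.24). The call of *Cebpa* in TH1 and TH2 cells was lost without deficient replicate 3, where 5 and 4 counts remained against 0 in WT and the lower bounds of the fold were 2.16 and 2.62 in place of 3.56 and 5.19. That of *Mpo* in TH2 cells was lost without deficient replicate 2, while the ratio of summed counts was 32.7 (95% counting interval 5.13 to 1368) in place of 42.8 (7.17 to 1741).

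In the *Dohh* table, replicate 1 was below replicates 2 and 3 for every member in TH2, TH17 and Treg cells. Replicate 2 was the highest library for 8 members in TH1 and all 10 in TH2 cells, and replicate 3 for 6 in TH17 and 8 in Treg cells. In TH1 cells without deficient replicate 2, the log2 fold change of *Lyz2* was 2.89. No count of *S100a9* was then left, and *Cebpa* had 1 count against 2 in WT, which gives no fold. The number of members called in TH1 cells then fell from 4 to 2, as it also did without any single WT replicate, although *Lyz2* had a log2 fold change of 7.02 to 7.79 without a WT replicate, against 7.21 with all libraries. In TH2 cells it fell from 10 to 4 without deficient replicate 2 or WT replicate 1 and to 5 without WT replicate 3. Without WT replicate 1 the log2 fold changes in TH2 cells were 8.93 for *S100a9* and 5.99 for *Lyz2*, against 9.07 and 6.14 with all libraries. Without deficient replicate 2 they were 5.25 and 4.06, with 4.83 for *S100a8*, 3.83 for *Spi1* and 3.76 for *Tyrobp*. The lower bound for *Elane* was then 7.51-fold in place of 30.8-fold, and the ratios of summed counts were 43.5 for *Mpo*, 41.3 for *Csf1r* and 96.6 for *Cebpa*, in place of 107, 113 and 167. In TH17 cells without replicate 3, *S100a8*, *S100a9* and *Fcer1g* had log2 fold changes of 9.13, 8.60 and 4.69, and the ratios were 626 for *Mpo* and 759 for *Elane*, in place of 1499 and 1488. In Treg cells without replicate 3, *S100a8* and *S100a9* had 6.72 and 6.85, the bound for *Mpo* was 90.0-fold in place of 199-fold, and the ratio for *Elane* was 395 in place of 773. *Lyz2* moved most without replicate 2, to 5.22 in TH17 and 6.28 in Treg cells, and *Tyrobp* in TH1 cells without replicate 3, to 3.09. The members did not keep 1 proportion across libraries. Per kilobase of exon, the ratio of *Lyz2* to *S100a9* in *Dohh*-/- TH17 cells was 0.688 in replicate 2 and 0.0831 in replicate 3, and in Treg cells 1.42 and 0.390. In *Odc*-/- TH17 cells it was 1.68, 4.62, 0.485 and 1.56, lowest in replicate 3. The ratio of *Elane* to *Mpo* was 4.196, 4.22 and 3.09 in *Dohh*-/- TH17 cells and 1.72 and 0.736 in replicates 2 and 3 of TH2 cells.

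**Figure D3:**
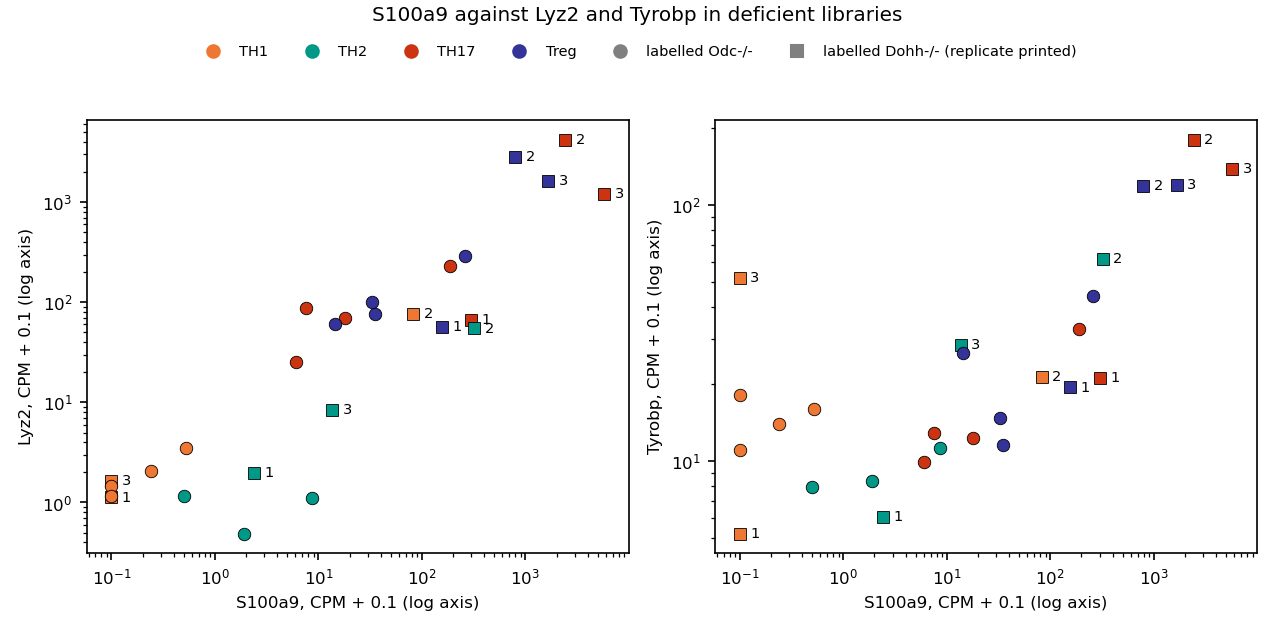
CPM + 0.1 of *S100a9* on the horizontal axis against *Lyz2* (left) and *Tyrobp* (right) in each library labelled *Odc*-/- (circles) or *Dohh*-/- (squares, with the replicate number), both axes on log scales, colored by subset. *Lyz2* differs between *Dohh*-/- TH17 replicates 2 and 3 in the order opposite to *S100a9*, and *Dohh*-/- TH1 replicate 3 has 51.8 CPM of *Tyrobp* without a count of *S100a9*.

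Within groups the members varied together. After centering log2(CPM + 1) on each group mean, Pearson's r between pairs of members ran from 0.594 to 0.989 over the 15 *Odc*-/- libraries (median 0.823) and from 0.635 to 0.994 over the 12 *Dohh*-/- libraries (median 0.878), over 45 pairs each. *Tyrobp* followed the mean of the other members least, with r of 0.802 and 0.778. Among the 12908 other genes tested in both tables, those whose pattern was most like the mean of the members, by the smaller r of the 2 tables, were *Lcn2* (0.974), *Sirpa* (0.963), *Ltf* (0.963), *Ngp* (0.953), *Hp* (0.952), *Chil3* (0.948), *Mgst1* (0.947), *Pilra* (0.946), *Mtus1* (0.933) and *Gda* (0.933). *Lcn2*, *Ltf* and *Ngp* encode proteins of neutrophil secondary granules, *Hp* encodes haptoglobin, *Chil3* encodes the chitinase-like protein Ym1 and *Sirpa* the receptor for CD47. *Chil3* reached 9239 CPM in a *Dohh*-/- library, against at most 30.6 CPM in WT libraries of that table, and *Lcn2* reached 393 against 0.937 CPM. These correlations are descriptions over libraries that share their cultures and depth.

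Other genes of the same pathways were taken from 9 lists of 94 genes, tested in the same fits with adjustment over all genes. A listed gene, too, can pass the filter on low counts through the deficient libraries alone, so the counts are descriptions. Each gene given with a p averaged above the cutoff of the filter over all libraries of its table, 1.30 CPM in the *Odc* and 1.02 CPM in the *Dohh* table, and would have passed with its reads spread evenly. However, the genes given with a p, markers of other cell types included, were picked because they were called in these same comparisons. Their p-values are therefore descriptions too, and nothing is read from them. Of 68 listed genes tested in the *Odc* table, 22 rose in TH1, 19 in TH2, 32 in TH17 and 41 in Treg cells, and 4, 4, 3 and 1 fell. Of 80 tested in the *Dohh* table, 24 rose in TH1, 37 in TH2, 63 in TH17 and 57 in Treg cells, and 4, 2, 1 and 5 fell. In TH2 cells of the *Dohh* table, 24 rose when deficient replicate 2 was left out. Of the 53 and 50 listed genes that passed the filter within the WT libraries of the 2 tables, 13, 13, 18 and 26 rose in *Odc*-/- TH1, TH2, TH17 and Treg cells, and 16, 19, 33 and 28 in *Dohh*-/- ones. For every list here and below, the shares of all genes called higher were 10.2%, 11.5%, 8.35% and 13.9% in *Odc*-/- TH1, TH2, TH17 and Treg cells. In *Dohh*-/- cells they were 14.8%, 14.3%, 17.3% and 17.5%. The shares called lower are given with the calls of the members. Some lists lay near these shares, such as the oxidase and integrin genes with 1 of 9 in *Odc*-/- TH2 cells, and nothing is read from such counts.

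Of the neutrophil granule and surface genes, 1, 2, 6 and 9 of 11 tested rose in *Odc*-/- TH1, TH2, TH17 and Treg cells and 3, 2, 3 and 0 fell. In *Dohh*-/- cells 1, 5, 12 and 13 of 13 rose and 2, 0, 1 and 0 fell. The summed level of the whole list did not rise throughout the *Odc* table. It was 4.54 to 248 CPM in WT (median 72.4) and 11.6 to 437 CPM in deficient libraries (median 34.3). In the *Dohh* table it was 17.5 to 105 CPM in WT (median 37.2) and 10.1 to 11430 CPM in deficient libraries (median 415). *Ctsg*, which encodes cathepsin G, rose in all 8 comparisons, with 1.06 to 18.6 CPM in *Odc*-/- TH17 cells against 0 to 0.678 CPM (log2 fold change 4.80 ± 0.93, adjusted p = 2.04e-04, edgeR). In *Dohh*-/- TH1 cells, where *S100a8* was in 1 library, *Ctsg* had 2.35 to 21.3 CPM against 0 to 0.449 CPM (5.78 ± 1.35, adjusted p = 0.00180, edgeR). *Ngp* rose in 5 comparisons, with 73.3 to 1429.8 CPM in *Dohh*-/- TH17 cells (9.41 ± 2.25, adjusted p = 0.00292, edgeR). *Prtn3*, the gene of proteinase 3 beside *Elane*, also rose in 5, with 8.42 to 274 CPM in the same cells (9.06 ± 1.77, adjusted p = 4.46e-04, edgeR). Genes named here after their values were seen are *Ly6g*, a neutrophil surface marker that fell in 5 comparisons and rose in 1, and the chemokine receptor gene *Cxcr2*, which fell in 4 and rose in 3. *Ly6g* reached 142.7 CPM in WT and 51.2 CPM in deficient libraries of the *Odc* table, and 69.6 and 13.6 CPM in those of the *Dohh* table. *Retnlg* was at 0 in 45 of 55 libraries.

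Of the monocyte and macrophage genes, 1, 0, 2 and 2 of 6 tested rose in *Odc*-/- TH1, TH2, TH17 and Treg cells and 1, 1, 0 and 0 fell. In *Dohh*-/- cells 2, 4, 13 and 10 of 13 rose and 1, 0, 0 and 0 fell. The median log2 fold change of the tested genes was -0.23 to 0.49 over the *Odc*-/- subsets. It was 1.09 to 5.30 over the *Dohh*-/- ones, with bounds used as for the members. *Cd14*, the co-receptor for lipopolysaccharide, rose in 6 comparisons, with 8.29 to 73.9 CPM in *Dohh*-/- Treg cells against 0.122 to 0.682 CPM (6.78 ± 0.998, adjusted p = 1.70e-05, edgeR). *Mrc1*, the macrophage mannose receptor, rose in 4, with 0.609 to 52.4 CPM in *Dohh*-/- TH17 cells (4.50 ± 1.24, adjusted p = 0.00532, edgeR). *Ccr2*, which is also expressed by T cells, rose in 4, with 2.49 ± 0.34 in *Odc*-/- Treg cells (adjusted p = 9.75e-07, edgeR). Also named after their values were seen, *Cd68* rose in 2 comparisons and fell in 2, and *Cx3cr1* rose in 2 and fell in 1. *Ctss* rose in 1 and was not called in 7. The tissue macrophage marker *Vsig4* had no count in any of the 55 libraries, and *Marco* was at 0 in 46.

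Of the receptors that pair with DAP12, 4, 2, 4 and 5 of 5 rose in *Odc*-/- cells and 2, 6, 8 and 8 of 8 in *Dohh*-/- cells, and none fell. *Klrk1*, which encodes NKG2D, rose in 7 comparisons, with 172 to 277 CPM in *Odc*-/- Treg cells against 6.51 to 14.1 CPM (4.40 ± 0.26, adjusted p = 3.62e-12, edgeR). *Clec5a*, a receptor of myeloid cells, rose in 6, with 7.41 to 84.6 CPM in *Dohh*-/- TH17 cells (6.61 ± 1.48, adjusted p = 0.00199, edgeR), and *Klrc2*, an NK cell receptor, in 5. Of the partners of the Fc receptor γ chain, 5, 3, 5 and 5 of 5 rose in *Odc*-/- and 5, 5, 6 and 6 of 6 in *Dohh*-/- cells, and none fell. *Fcer1a*, the IgE receptor chain of basophils and mast cells, rose in all 8, with 22.0 to 73.5 CPM in *Dohh*-/- TH17 cells (8.54 ± 1.16, adjusted p = 9.32e-06, edgeR). *Clec4e* (Mincle) rose in all 8 and *Clec4d* in 7. In *Odc*-/- Treg cells *Clec4e* had 3.91 to 8.41 CPM against 0.207 to 0.807 CPM (3.66 ± 0.52, adjusted p = 1.35e-06, edgeR). Of the ITAM kinases and adaptors, 5, 4, 6 and 6 of 8 rose in *Odc*-/- and 4, 6, 6 and 6 of 8 in *Dohh*-/- cells, and none fell. *Btk*, *Lyn* and *Plcg2*, signaling enzymes that B cells and myeloid cells share, rose in all 8, with *Lyn* at 8.26 to 29.0 CPM in *Odc*-/- TH1 cells against 1.30 to 4.59 CPM (2.54 ± 0.37, adjusted p = 5.49e-06, edgeR).

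Genes of the NADPH oxidase and leukocyte integrins rose in 2, 1, 3 and 3 of 9 in *Odc*-/- and in 2, 3, 5 and 3 of 8 in *Dohh*-/- cells, with 1 falling in *Odc*-/- TH2 and in *Dohh*-/- TH1, TH2 and Treg cells. *Cybb*, the catalytic oxidase subunit, rose in 7 comparisons, with 13.3 to 127 CPM in *Dohh*-/- TH17 cells (5.78 ± 1.16, adjusted p = 5.27e-04, edgeR). *Itgax* (CD11c) also rose in 7. Other myeloid transcription factors rose in 0, 2, 1 and 3 of 9 in *Odc*-/- and in 1, 2, 5 and 3 of 9 in *Dohh*-/- cells, and 1 and 3 fell in Treg cells of the 2 tables. *Cebpe*, needed for secondary granules, was without a count in every WT library of the *Dohh* table. It had 1.01 to 37.5 CPM in deficient TH17 cells, at least 142-fold higher than 3 counts over the WT group. *Zeb2* and *Cebpb* each rose in 4 comparisons. Myeloid growth factors and receptors rose in 3, 2, 2 and 5 of 7 in *Odc*-/- and in 4, 2, 3 and 4 of 7 in *Dohh*-/- cells, and none fell. *Csf2rb*, the β chain shared by the receptors for IL-3, IL-5 and GM-CSF, rose in all 8, with 3.44 ± 0.64 in *Odc*-/- TH1 (adjusted p = 9.23e-05, edgeR) and 6.08 ± 0.88 in *Dohh*-/- TH2 cells (3.16e-05). *Csf2*, the gene of GM-CSF, rose in 6, with 20.1 to 58.7 CPM in *Dohh*-/- TH2 cells against 1.23 to 1.69 CPM (4.76 ± 0.63, adjusted p = 6.66e-06, edgeR), and *Csf1* in 3.

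Of the relatives of the calprotectin genes and their receptors, 1, 3, 3 and 3 of 8 rose in *Odc*-/- and 3, 4, 5 and 4 of 8 in *Dohh*-/- cells, and 1 fell in *Dohh*-/- TH2 and Treg cells. *Tlr4*, a receptor for calprotectin and lipopolysaccharide, rose in all 8, with 3.25 to 27.2 CPM in *Dohh*-/- TH17 cells (5.38 ± 0.94, adjusted p = 1.01e-04, edgeR). *S100a4* and *S100a6*, calcium-binding proteins that are not limited to myeloid cells, each rose in 7. In the *Dohh* table *S100a6* had 415 to 1037 CPM in deficient TH1, 487 to 635 CPM in TH2, 413 to 1182 CPM in TH17 and 539 to 637 CPM in Treg cells. The WT libraries had 25.8 to 33.2 CPM in TH2 and 16.3 to 20.5 CPM in Treg cells (adjusted p = 1.94e-08 and 1.98e-09, edgeR).

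**Figure D4:**
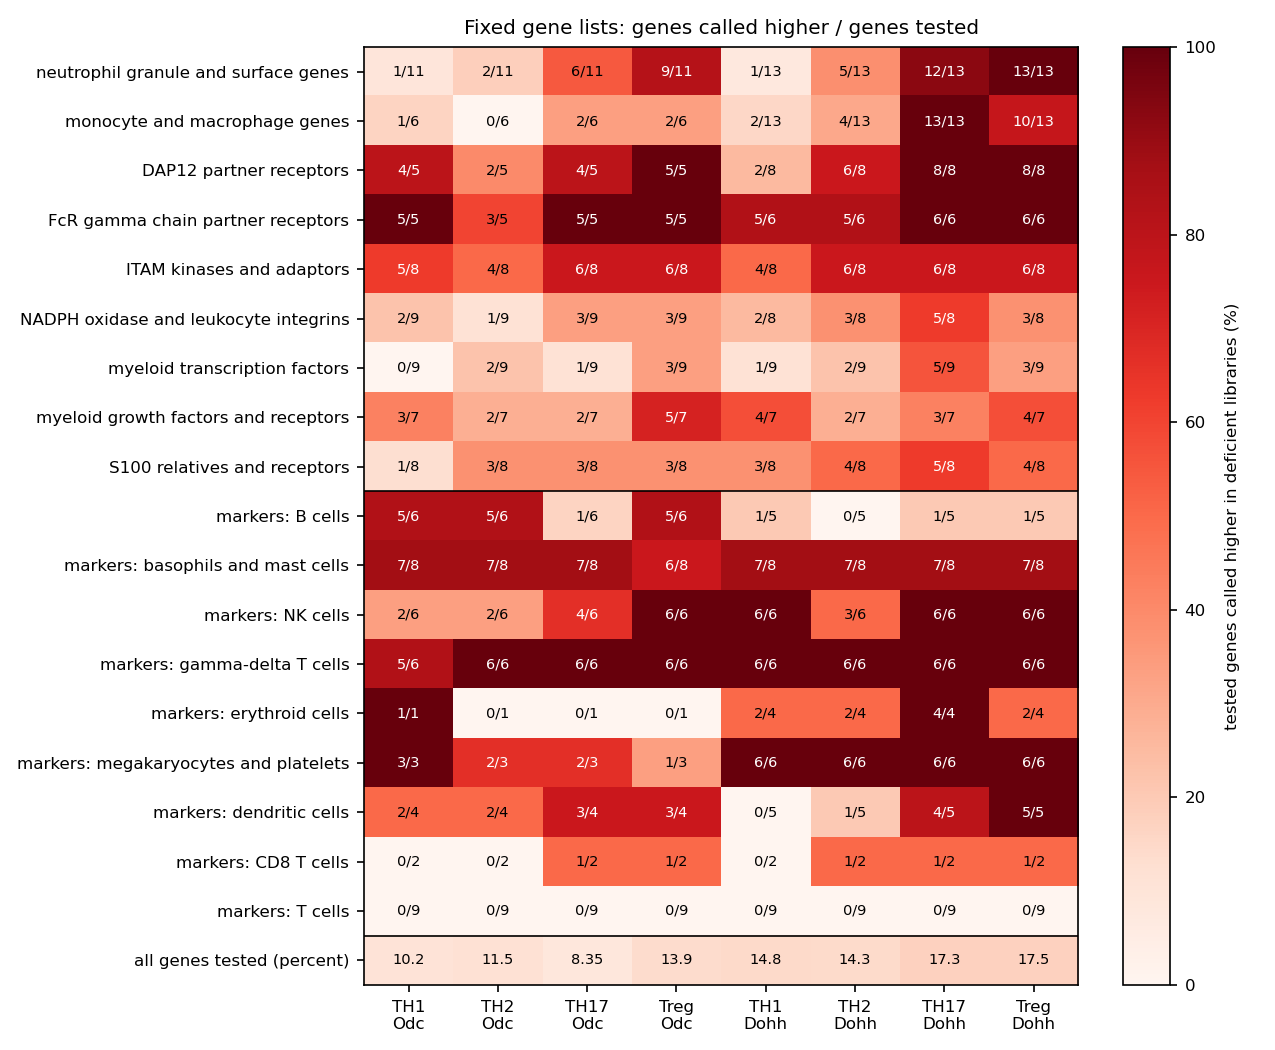
Genes called higher in deficient libraries out of genes tested, for 9 lists of myeloid genes, 9 lists of markers of other cell types and all genes tested (percent, bottom), in each of the 8 comparisons, with color giving the percentage from 0 to 100. Basophil and mast cell markers and γδ T cell markers are called in most comparisons, 6 or 7 of 8 and 5 or 6 of 6, and T cell markers in none.

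Markers of several other cell types also rose in deficient cells, while those of T cells did not and few of those of B cells did in the *Dohh* table. The part of these cell types in the differences of the 10 genes was not tested. Markers of basophils and mast cells rose in 7, 7, 7 and 6 of 8 in *Odc*-/- TH1, TH2, TH17 and Treg cells and in 7 of 8 in each *Dohh*-/- subset. Their summed level was 30.3 to 53.7 CPM in WT and 58.4 to 328 CPM in deficient libraries of the *Odc* table, and 40.7 to 68.3 and 92.0 to 1248 CPM in the *Dohh* table. *Prss34*, *Ms4a2* and *Cpa3* rose in all 8 comparisons, *Cpa3* with 67.3 to 302 CPM in *Dohh*-/- TH17 cells (8.63 ± 1.04, adjusted p = 3.78e-06, edgeR). Markers of γδ T cells rose in 5, 6, 6 and 6 of 6 and in 6 of 6 in each *Dohh*-/- subset. Their sum was 15.2 to 73.0 CPM in WT and 125 to 703 CPM in deficient libraries of the *Odc* table, and 27.1 to 62.3 and 733 to 1553 CPM in the *Dohh* table. *Cd163l1*, *Tcrg-C4* and *Tcrg-C1* rose in all 8. Markers of NK cells rose in 2, 2, 4 and 6 of 6 and in 6, 3, 6 and 6 of 6, with sums of 9.07 to 146 CPM in WT and 26.6 to 225 CPM in deficient libraries of the *Odc* table, and 8.25 to 104 and 40.6 to 621 CPM in the *Dohh* table. *Eomes* rose in all 8 and *Klrb1c* and *Klre1* in 6. γδ T cells and NK cells can themselves express *Fcer1g* and *Tyrobp*, and basophils and mast cells *Fcer1g* and *Csf2rb*.

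Markers of megakaryocytes and platelets rose in 3, 2, 2 and 1 of 3 in *Odc*-/- and in all 6 tested in each *Dohh*-/- subset. Their sum was 2.33 to 10.4 CPM in WT and 6.07 to 42.1 CPM in deficient libraries of the *Odc* table, and 4.98 to 12.2 and 50.1 to 653 CPM in the *Dohh* table. *Pf4* rose in all 8, and *Ppbp* and *Itga2b* in 6. Markers of dendritic cells rose in 2, 2, 3 and 3 of 4 and in 0, 1, 4 and 5 of 5, with sums of 175 to 477 CPM in WT and 233 to 1499 CPM in deficient libraries of the *Odc* table, and 209 to 478 and 68.7 to 2006 CPM in the *Dohh* table. *Cd74* rose in 7 comparisons, *H2-Eb1* in 6 and *Zbtb46* in 4, while *Xcr1*, *Cd209a* and *Ccr9* passed the filter in neither table. Markers of B cells rose in 5, 5, 1 and 5 of 6 in *Odc*-/- and in 1, 0, 1 and 1 of 5 in *Dohh*-/- cells, with 1 falling in *Odc*-/- TH17 and in each *Dohh*-/- subset. Their sum was 6.10 to 109 CPM in WT and 12.3 to 507 CPM in deficient libraries of the *Odc* table, and 8.63 to 70.0 and 6.44 to 55.0 CPM in the *Dohh* table. *Cd79b* rose in 7, *Ms4a1* rose in 3 and *Ebf1* fell in 5. Erythroid markers rose in 1, 0, 0 and 0 of 1 tested and in 2, 2, 4 and 2 of 4, and 1 fell in *Odc*-/- Treg cells. Their sum was 0.113 to 3.39 CPM in WT and 0 to 3.16 CPM in deficient libraries of the *Odc* table, and 0.336 to 1.82 and 2.52 to 67.2 CPM in the *Dohh* table. *Hbb-bt* rose in 5 and *Hbb-bs*, tested in the *Dohh* table only, in 4, and *Alas2* was at 0 in 47 of 55 libraries.

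The 2 markers of CD8+ T cells, *Cd8a* and *Cd8b1*, rose in 0, 0, 1 and 1 of 2 in *Odc*-/- and in 0, 1, 1 and 1 of 2 in *Dohh*-/- cells, and 1 fell in *Dohh*-/- TH1 and TH2 cells. *Cd8a* rose in 5 and *Cd8b1* fell in 2. Their sum was 7.82 to 41.4 CPM in WT and 5.81 to 219 CPM in deficient libraries of the *Odc* table, and 12.3 to 26.8 and 7.15 to 338 CPM in the *Dohh* table. No T cell marker rose, while 0, 3, 1 and 1 of 9 fell in *Odc*-/- and 4, 5, 5 and 5 of 9 in *Dohh*-/- cells. The sum of T cell markers was 2672 to 4494 CPM in WT and 2039.9 to 3927 CPM in deficient libraries of the *Odc* table, and 3377 to 4421 and 1496 to 3121 CPM in the *Dohh* table. *Cd4* fell in all *Dohh*-/- subsets, with -3.73 ± 0.25 in TH17 cells (adjusted p = 6.66e-10, edgeR), and passed the thresholds in TH2 cells of the *Odc* table (-1.01 ± 0.26, adjusted p = 0.00168). *Cd28* fell in 6 comparisons and *Cd5* in 4.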

How the data were processed

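RNA of polarized CD4+ T cell cultures was sequenced from a stranded TruSeq mRNA library. The deposited files are 2 tables of raw read counts per gene, which the authors made, per the processing notes, with STAR on mm10 and featureCounts (versions, annotation release and strand setting not given in the sources used here). Of 56 labelled samples, 55 had a column, and TH2 *Odc*-/- replicate 1 was not analysed here. The tables were fitted separately and levels were not compared between them.

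Genes were filtered with filterByExpr, scaled by TMM and fitted with edgeR 4.0.16 (robust quasi-likelihood, R 4.3.3), with 1 mean per subset and genotype and no covariate, as raw counts. A call required log2 fold changes beyond 1 in size, with p adjusted over all genes (Benjamini-Hochberg) under 0.05. Differences between subsets were tested by the F-test over the 4 subset means of 1 genotype, with the same thresholds on the largest difference. The script was tested on simulated data. Alternatives were size factors in place of TMM, no filter, a replicate block, DESeq2 1.42.0 and each library left out in turn. Fits of 1 genotype alone, a block on genotype and number, and all libraries of 1 number left out were chosen after seeing the data.

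The members and the gene lists were chosen with earlier results of these data known. Named beside the members are up to 3 genes of each list called in the same direction in most of the 8 comparisons, at least 2, and the 10 genes whose centered log2(CPM + 1) followed the members most closely in both tables. A gene that this rule names is not reported here. A fold against a WT group at 0 was computed against 3 counts over the group. With 1 to 3 counts in the WT group, members have a ratio of summed counts scaled to library size, with an exact 95% counting interval. The labels call replicates biological but do not tie them to animals, so p-values measure the spread between these libraries. Sequences are from RefSeq.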

Additional observations from a re-analysis of the deposited data

Results flagged for a closer look

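In groups of 4 libraries, a library was noted when its gap to the nearest other library, divided by the range of the group, exceeded 0.829. Of 51 groups tested, 11 had such a library, and in each it was *Odc*-/- replicate 3 as the highest. Chance gives about 1 in 20 groups for normally distributed values. These are CPM of genes chosen for high values in deficient libraries, so the count is a description and is not set against that share. In TH17 cells the quotient was 0.914 for *S100a8*, 0.935 for *S100a9*, 0.839 for *Mpo*, 0.927 for *Elane*, 0.873 for *Tyrobp* and 0.902 for *Cebpa*. In Treg cells it was 0.907 for *S100a8*, 0.916 for *S100a9*, 0.829 for *Lyz2*, 0.906 for *Elane* and 0.900 for *Spi1*. The groups share libraries, so these quotients are not independent of each other.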

How the results depend on the processing

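Of 1150 member fold changes under an alternative, 1046 kept direction and side of the thresholds, 79 were no longer called, 23 became called and 2 changed sign, both in *Dohh*-/- TH1 cells. These were *Csf1r* at -0.31 with all libraries numbered 2 left out and *Cebpa* at -0.24 without deficient replicate 2 (highest 5.85 with 1 library left out). The *Cebpa* values rest on 1 count against 2 and, for the highest, on a WT group left without a count, so they depend on the prior count of the fit. The cause was not tested for *Csf1r*. For the named genes of the lists, 4155 values under an alternative kept direction and side of the thresholds, and 336 were no longer called. Of 523 counts, 486 stayed within 1.5 times the value given. With DESeq2, the members called were 8 in *Odc*-/- TH2 and 9 in *Dohh*-/- TH1 cells, and 38 listed myeloid genes rose in *Dohh*-/- TH1 cells. With all libraries of 1 number left out, members called in *Dohh*-/- cells were 7, 1 and 1 in TH1 (numbers 1, 2 and 3), 3 and 2 in TH2 (2 and 3) and 4 in Treg (3). Listed genes that rose were then 15 in TH1 and 17 in TH2 without number 2, and 22 in TH2, 36 in TH17 and 32 in Treg without number 3. Without number 2, 2506 genes were called in *Dohh*-/- TH1 cells in place of 4039, and 2184 between deficient *Dohh* subsets in place of 3509. Between subsets, members called without 1 number were 5 in *Odc* WT (3), 1 in *Dohh* WT (1) and 0 in deficient *Dohh* (3) libraries. With no filter 5 members were called between deficient *Dohh* subsets, and with those libraries alone 1 member and 1940 genes were. The *Dohh* WT libraries alone gave 5. With 1 library left out, members called ranged from 2 to 5 in *Dohh*-/- TH1, from 4 to 10 in TH2 and from 5 to 10 between deficient *Dohh* subsets, and listed genes that rose in *Dohh*-/- TH2 cells from 24 to 39.

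The labels do not state whether replicate numbers pair WT with deficient libraries. Between WT and deficient libraries of 1 subset and number, deviations from the group means correlated above 0.1 in 7 of 15 *Odc* and 1 of 12 *Dohh* pairs. These correlations cannot decide whether such a pairing exists. With the replicate block, members called were 7 in *Dohh*-/- TH1 cells, 5 between *Odc* WT subsets and 1 between *Dohh* WT subsets. A block on genotype and number gave 5 and 3 between WT subsets. Libraries of 1 genotype and number correlated above 0.1 in 44 of 45 *Odc* and 27 of 36 *Dohh* pairs of subsets, a hint from the data that the labels do not state. Depth limits the granule genes in WT libraries, where most values lie under the limit that a count of 0 allows.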
